A study of Mus musculus with 12 samples.

Results

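The TRAF family (TNF receptor-associated factors) and the TBK1 kinases were followed as 10 genes across the 4 groups of the experiment. They were taken by name: Traf1 to Traf7, Tank, Tbk1 and Ikbke, the last encoding IKK-epsilon. All 10 were found among the 16699 genes counted in both deposited tables, and all 10 passed the filter on low counts in every comparison. The rule used names and no measured value.

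J774A.1 is a mouse macrophage line, and the study edited Acat1, which encodes a mitochondrial acetyl-CoA acetyltransferase, with CRISPR-Cas9. The groups were WT unstimulated, ACAT1 KO unstimulated, WT LPS and ACAT1 KO LPS, each with 3 libraries from 3 lines of its genotype. LPS, a bacterial ligand of Toll-like receptor 4, was given at 100 ng/ml for 2 hours. WT lines had received the Cas9 and GFP vector without a guide and ACAT1 KO lines the same vector with a guide to Acat1, and GFP-positive cells were sorted, a few to a well, and grown out as lines that the study describes as single-cell clones. A genotype difference is therefore a difference between 3 lines and 3 other lines, and the effect of the guide cannot be told apart from features that the 3 lines of a genotype share.

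TRAF proteins are adaptors that sit under the cytoplasmic tails of TNF receptors, interleukin-1 receptors and Toll-like receptors, and most of them are also ubiquitin ligases. After Toll-like receptor 4 binds LPS, the adaptor MyD88 uses TRAF6 to reach the kinase TAK1 and NF-kappaB, while the adaptor TRIF uses TRAF3 and the scaffold TANK to reach the kinases TBK1 and IKK-epsilon. Those kinases phosphorylate IRF3 and IRF7, the transcription factors that turn on type I interferon genes. TRAF2 and TRAF3 also hold the kinase NIK in check, and TRAF1 is a well-known target gene of NF-kappaB.

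Counts per library summed to between 56948593 and 167280149. Acat1 was lower in ACAT1 KO cells in both states, by a log2 fold change of -1.87 without stimulation (edgeR, adjusted p = 0.00876) and -2.08 after LPS (edgeR, adjusted p = 0.000787). All 9 macrophage markers examined were listed, at 42.1 to 8046 CPM, which is the count scaled to a common library total, and the T cell markers Cd3e, Cd3g and Cd8a, the B cell marker Ms4a1 and the epithelial markers Epcam and Krt8 were not listed in either table. The T cell marker Cd4, the B cell marker Cd79a and the granulocyte marker Mpo stayed at or below 0.824 CPM, and the dendritic cell marker Zbtb46 at 2.52 to 5.88 CPM. Of the 3 fibroblast markers, Pdgfra alone was above 1 CPM, and the summed level of that list was 1.24 to 1.88 CPM in unstimulated cells, 4.91 to 5.93 CPM in WT LPS and 10.2 to 12.1 CPM in ACAT1 KO LPS. Macrophage markers summed to 10996 to 11416 CPM in WT and 11889 to 13220 CPM in ACAT1 KO unstimulated libraries, and to 8986 to 9514 CPM in WT LPS and 9565 to 10616 CPM in ACAT1 KO LPS libraries. The part of these marker levels in the results was not tested. Genes antisense to the exons of another gene took 0.0398% to 0.0612% of the counts in 3 unstimulated libraries, which were replicates 1 and 2 of WT and replicate 2 of ACAT1 KO, and no more than 0.011% elsewhere. Whether the counting used the strand of the reads is not given in the sources used here, and 4.49% of the exon bases of Traf5, 2.48% of those of Ikbke and 1.87% of those of Traf7 overlap exons on the other strand, so these 3 genes carry that uncertainty, while the other 7 have no such overlap.

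The 10 genes are spread over 6 chromosomes of GRCm38, with 4 of them on chromosome 2. Traf1 (ENSMUSG00000026875) lies at chr2:34941750-34961772 and Traf3 (ENSMUSG00000021277) at chr12:111166370-111267153. Tbk1 (ENSMUSG00000020115) lies at chr10:121546455-121586787 and Ikbke (ENSMUSG00000042349) at chr1:131254343-131279606. Traf4 (ENSMUSG00000017386) lies at chr11:78158499-78165589 and Traf6 (ENSMUSG00000027164) at chr2:101678429-101701669. With 8 of the 10 genes higher after LPS, the promoters of all 10 were searched for the NF-kappaB site known as the kappaB consensus, for the interferon-stimulated response element core GAAANNGAA and for the gamma-activated site core TTCNNNGAA, on both strands of RefSeq windows of GRCm38.p6 that run from 250 bases before to 50 bases after an annotated start. These motifs were present in 4.51%, 8.56% and 8.3% of all 32851 windows. The kappaB consensus was matched in Traf3, ending at the base before the start, and in 2 of the 4 windows of Tank. These 2 Tank windows overlap and hold the same match. The GAAANNGAA core was matched in Traf4 and in Traf5, and neither the windows of Traf1, Traf2, Traf6, Traf7, Tbk1 and Ikbke nor the other Tank windows held a match to any of the 3, which says only that these letters are not in these windows. Shown here are the 250 bases before the start for Traf1 and Ikbke, the genes that rose most with LPS, for Traf3, which holds a kappaB match, and for Traf4, which fell with LPS and holds a GAAANNGAA match. Each is written 5′ to 3′ on the strand of its gene, with motif matches in capitals, and for Traf4 and Ikbke the window reaches into the first bases of the GENCODE gene.
Traf1, chr2:34961773-34962022, minus strand: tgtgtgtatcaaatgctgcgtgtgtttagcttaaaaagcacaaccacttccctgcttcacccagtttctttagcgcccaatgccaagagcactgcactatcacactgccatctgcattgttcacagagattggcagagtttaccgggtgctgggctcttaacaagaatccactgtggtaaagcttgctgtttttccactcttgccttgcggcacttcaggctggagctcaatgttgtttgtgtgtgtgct
Ikbke, chr1:131279564-131279813, minus strand: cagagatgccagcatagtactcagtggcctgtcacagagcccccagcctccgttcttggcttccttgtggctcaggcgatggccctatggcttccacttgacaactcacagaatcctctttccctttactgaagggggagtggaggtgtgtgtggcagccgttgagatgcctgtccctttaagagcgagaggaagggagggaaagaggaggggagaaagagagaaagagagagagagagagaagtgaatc
Traf3, chr12:111166120-111166369, plus strand: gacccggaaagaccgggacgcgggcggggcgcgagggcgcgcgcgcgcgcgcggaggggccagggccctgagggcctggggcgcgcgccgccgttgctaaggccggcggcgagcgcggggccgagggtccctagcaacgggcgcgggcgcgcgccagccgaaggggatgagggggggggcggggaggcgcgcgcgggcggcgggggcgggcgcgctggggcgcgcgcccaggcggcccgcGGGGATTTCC
Traf4, chr11:78165551-78165800, minus strand: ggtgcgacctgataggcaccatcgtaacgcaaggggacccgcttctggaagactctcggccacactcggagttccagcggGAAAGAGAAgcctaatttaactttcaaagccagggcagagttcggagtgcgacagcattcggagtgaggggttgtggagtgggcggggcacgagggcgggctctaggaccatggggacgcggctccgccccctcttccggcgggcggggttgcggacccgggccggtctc
The Traf3 window is rich in G and C, at 84% of its 300 bases against a median of 52.7% over all windows, and the Traf1 window is at 48.7%.

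LPS changed the level of all 10 genes in both genotypes. Traf1, Traf2, Traf3, Traf5, Traf6, Tank, Tbk1 and Ikbke rose, and Traf4 and Traf7 fell. The test was edgeR's quasi-likelihood test over 12 libraries with Benjamini-Hochberg adjustment over 16535 genes, of which 29.3% were called higher and 28.0% lower in WT cells, and 29.5% higher and 31.2% lower in ACAT1 KO cells. The median of the log2 fold change over the 10 genes was 1.19 in WT cells and 1.02 in ACAT1 KO cells, where over all genes tested it was -0.018 and -0.026. In bulk RNA a change in the number of expressing cells cannot be told apart from a change in RNA per cell. With upper-quartile normalization the log2 fold changes of the 10 genes were lower by 0.21 in WT and 0.15 in ACAT1 KO cells, with every call kept, and over all genes tested the share of calls that were higher went from 51.1% to 35.2% in WT and from 48.5% to 37.4% in ACAT1 KO cells.

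**Figure D1:**
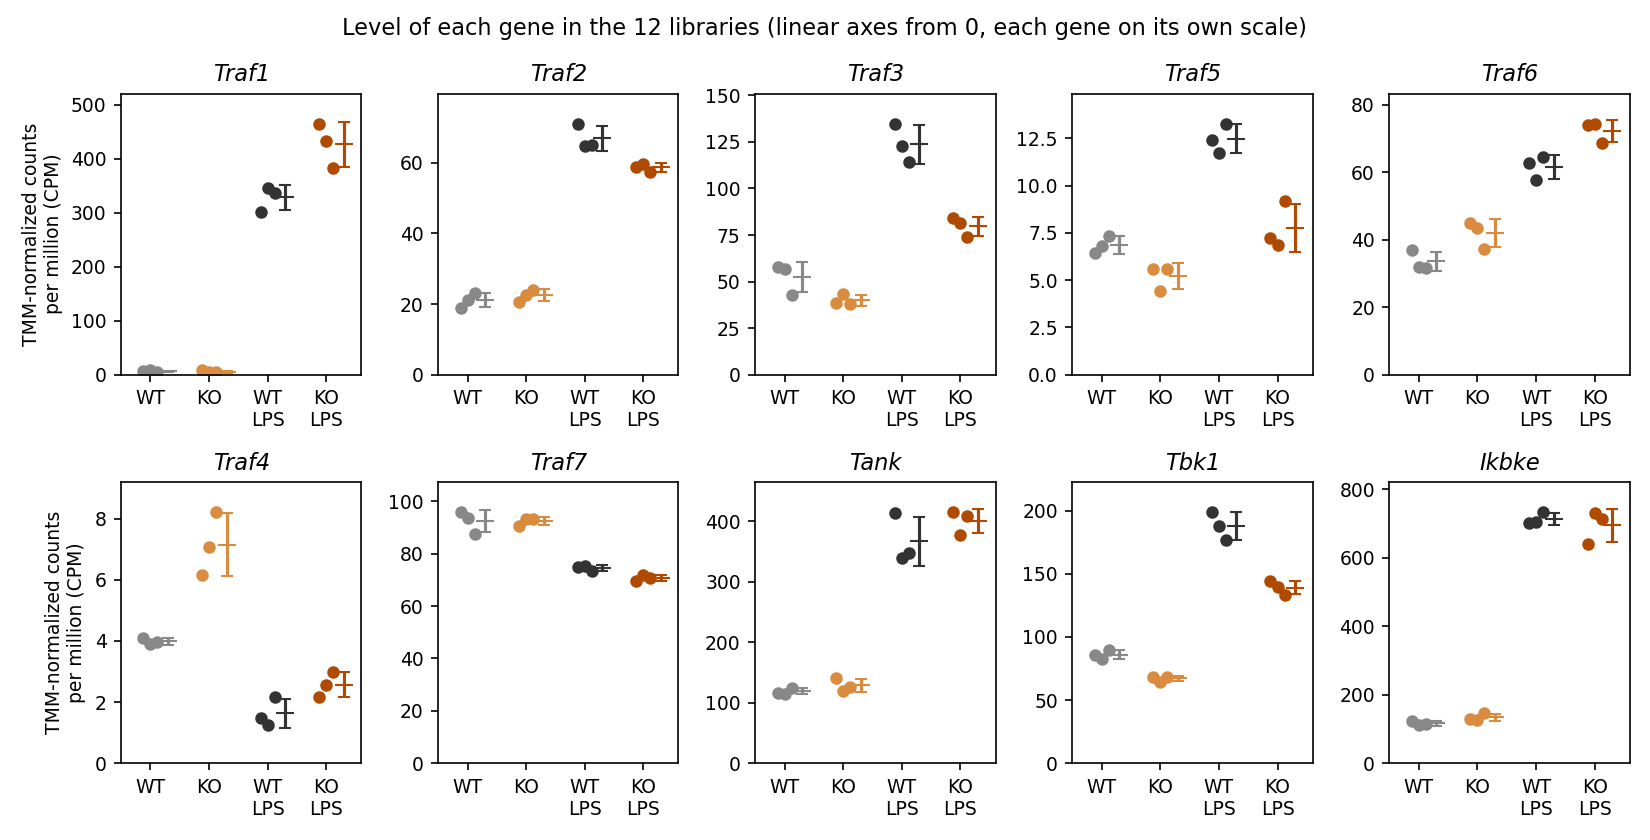
Level of each of the 10 genes in the 12 libraries, in TMM-normalized CPM on linear axes from 0, with 1 point per library and the mean and SD (n = 3) of each group beside the points. Traf4 and Traf7 are lower in all LPS libraries than in all unstimulated libraries, and the other 8 genes are higher in the LPS libraries of each genotype than in its unstimulated libraries.

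Traf1, an adaptor without a RING domain that joins TRAF2 under TNF receptors, had the largest response of the 10. It was 6.47, 7.72 and 5.85 CPM in the WT unstimulated libraries and 302, 346 and 337 CPM in the WT LPS libraries. In ACAT1 KO cells it was 7.91, 4.57 and 4.51 CPM without stimulation and 465, 434 and 383 CPM after LPS. Unstimulated libraries of the genotypes overlapped, and after LPS every ACAT1 KO library lay above every WT library. The log2 fold change with LPS was 5.63 in WT (SE 0.221, edgeR adjusted p = 2.28e-09) and 6.23 in ACAT1 KO cells (SE 0.226, edgeR adjusted p = 9.4e-10), or 49.4-fold and 75-fold.

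Ikbke had the next largest rise. It was 124, 111 and 114 CPM in the WT unstimulated libraries and 702, 703 and 733 CPM in the WT LPS libraries. In ACAT1 KO cells it was 130.0, 125 and 146 CPM without stimulation and 639.6, 731 and 712 CPM after LPS. Every unstimulated ACAT1 KO library lay above every unstimulated WT library, while the genotypes overlapped after LPS. The log2 fold change with LPS was 2.62 in WT (SE 0.0792) and 2.38 in ACAT1 KO cells (SE 0.0784), with edgeR adjusted p of 3.77e-10 and 4.92e-10. Tbk1, whose kinase product acts on the same substrates, rose less, with a log2 fold change of 1.13 in WT (SE 0.0605) and 1.05 in ACAT1 KO cells (SE 0.0604). Tank, the scaffold that holds both kinases, rose from a mean of 119 to 367 CPM in WT and from 128 to 400.4 CPM in ACAT1 KO cells, log2 fold changes of 1.63 and 1.64.

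Among the receptor adaptors, Traf2, which brings the ubiquitin ligases cIAP1 and cIAP2 to TNF receptors, rose by a log2 fold change of 1.66 in WT and 1.39 in ACAT1 KO cells. Its 6 unstimulated libraries lay at 19.0 to 24.1 CPM and its 6 LPS libraries at 57.4 to 71.1 CPM. Traf3 rose by 1.24 and 1.00, Traf6 by 0.88 and 0.79, and Traf5, a close relative of TRAF2, by 0.86 and 0.58 on the log2 scale in WT and ACAT1 KO cells. Traf4, a member best known from development and epithelial cells, fell by 1.28 on the log2 scale in WT and by 1.48 in ACAT1 KO cells. Its level was low throughout, at 1.26 to 8.21 CPM. Traf7, which has WD40 repeats in place of the TRAF domain of the other family members, fell by 0.31 and 0.39 on the log2 scale, from means of 92.4 and 92.4 CPM to 74.5 CPM in WT and 70.6 CPM in ACAT1 KO cells.

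**Figure D2:**
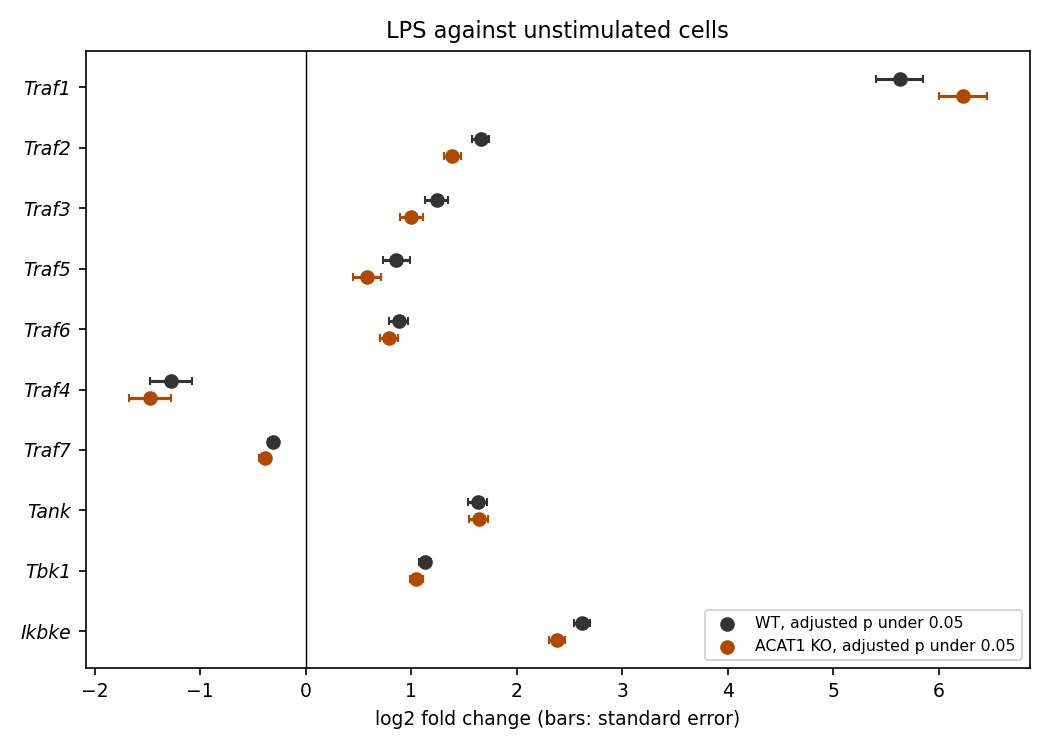
Log2 fold change with LPS for each gene in WT and ACAT1 KO cells, with bars for the standard error from edgeR and filled points for an adjusted p under 0.05. All 20 points are filled, Traf1 stands at 5.63 and 6.23, and the points for Traf4 and Traf7 lie below 0.

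Levels of different genes were compared as CPM per kilobase of exon (CPM per kb), with the exon bases of all annotated transcripts of a gene merged. The order of genes depends on these lengths, which can differ from those of the transcripts present in the cells. In WT unstimulated cells the order ran from Tbk1 at 22.0 ± 0.907 CPM per kb (SD, n = 3) and Tank at 19.5 ± 0.809 (SD, n = 3), through Traf7 at 15.7 and Ikbke at 12.9, to Traf3 at 7.12, Traf6 at 4.25 and Traf2 at 4.14 CPM per kb. Traf5 at 1.5, Traf4 at 1.21 and Traf1 at 0.757 CPM per kb closed it. The libraries of Traf6 and Traf2 overlapped, at 4.02 to 4.67 and 3.73 to 4.55 CPM per kb, and no other neighbours in this order did. After LPS the order in WT cells was led by Ikbke at 79.0 ± 1.96 CPM per kb (SD, n = 3), followed by Tank at 60.2, Tbk1 at 48.0 and Traf1 at 37.3 CPM per kb. In ACAT1 KO LPS cells Traf1, at 48.4 ± 4.71 CPM per kb (SD, n = 3), stood above Tbk1, at 35.6 ± 1.35 CPM per kb (SD, n = 3). Their libraries did not overlap in either genotype, at 34.3 to 39.2 CPM per kb for Traf1 and 45.2 to 50.9 for Tbk1 in WT LPS, and at 43.4 to 52.7 for Traf1 and 34.1 to 36.8 for Tbk1 in ACAT1 KO LPS. This change of order between genotypes rests on merged lengths of 8819 bases for Traf1 and 3910 for Tbk1. In CPM, without lengths, Traf1 was above Tbk1 after LPS in both genotypes, at means of 329 and 188 CPM in WT and 427 and 139 CPM in ACAT1 KO cells. Traf4 was the lowest of the 10 after LPS, at 0.496 CPM per kb in WT and 0.78 CPM per kb in ACAT1 KO cells.

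In the comparison of genotypes without stimulation, 2 of the 10 genes passed the adjusted threshold, Traf4 higher and Tbk1 lower in ACAT1 KO cells. Over the 16440 genes tested, 0.742% were called higher and 1.17% lower, and the median log2 fold change was 0.05 for the 10 genes and 0.004 for all genes. With edgeR p under 0.05 before adjustment, Traf4, Traf6 and Ikbke were higher and Traf3, Traf5 and Tbk1 lower. By the same criterion 9.73% of all genes stood higher and 9.93% lower. The study also used p under 0.05, but from Ballgown, which is a different test.

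Tbk1 was 85.9, 82.5 and 89.6 CPM in the WT and 68.5, 64.5 and 68.4 CPM in the ACAT1 KO unstimulated libraries. The genotypes did not overlap. Its log2 fold change was -0.35 (SE 0.0583, edgeR adjusted p = 0.0442). Traf4 was 4.10, 3.89 and 3.95 CPM in the WT and 6.14, 7.08 and 8.21 CPM in the ACAT1 KO unstimulated libraries, again without overlap. Its log2 fold change was 0.85 (SE 0.145, edgeR adjusted p = 0.045). Neither call was kept in any of the 6 fits that each left out 1 library, where the log2 fold change of Tbk1 ran from -0.38 to -0.32 (edgeR adjusted p from 0.0558 to 0.162) and that of Traf4 from 0.74 to 0.94 (edgeR adjusted p from 0.0638 to 0.168). Among the 3 libraries richer in antisense counts, from 2 WT lines and 1 ACAT1 KO line, the log2 difference was -0.38 for Tbk1 and 0.83 for Traf4, and among the other 3 it was -0.39 and 0.85.

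Of the genes that passed only without adjustment, Traf3 was 57.6, 56.5 and 42.9 CPM in WT and 38.5, 43.3 and 37.8 CPM in ACAT1 KO unstimulated libraries. WT replicate 3 lay among the ACAT1 KO libraries. Between genotypes the log2 fold change was -0.38 (SE 0.123, edgeR adjusted p = 0.162). Traf3 passed in 2 of its 15 alternatives, without WT replicate 3 at -0.51 (edgeR adjusted p = 0.0373) and with DESeq2 at -0.38 (DESeq2 adjusted p = 0.0316). The largest adjusted p among the 15 was 0.404 (edgeR). Traf6 was 36.8, 32.0 and 31.7 CPM in WT and 45.0, 43.6 and 37.1 CPM in ACAT1 KO unstimulated libraries, a log2 fold change of 0.33 (SE 0.0973, edgeR adjusted p = 0.135). The libraries of Traf6 were apart by a narrow margin, 36.8 in the highest WT and 37.1 CPM in the lowest ACAT1 KO library. Traf5 had a log2 fold change of -0.39 (edgeR adjusted p = 0.195) and Ikbke one of 0.21 (edgeR adjusted p = 0.208). For Traf1, Traf2, Traf7 and Tank the log2 fold changes were -0.23, 0.10, 0.01 and 0.12, with edgeR adjusted p of 0.68, 0.656, 0.95 and 0.429. Among the 3 antisense-rich libraries and among the other 3, the log2 difference was -0.40 and -0.17 for Traf3, 0.34 and 0.37 for Traf6, -0.59 and -0.40 for Traf5, and 0.10 and 0.27 for Ikbke, and for Traf1 it was -0.63 and 0.03.

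After LPS, 5 of the 10 genes passed between genotypes. Traf3, Traf5 and Tbk1 were lower and Traf1 and Traf6 higher in ACAT1 KO cells. Over the 16483 genes tested, 5.93% were called higher and 9.12% lower. The median log2 fold change was -0.04 for the 10 genes and -0.004 for all genes. Without adjustment, at p under 0.05, Traf4 was also higher and Traf2 also lower, where 14.1% of all genes were called higher and 17.2% lower.

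Traf3, the adaptor on the TRIF branch, was 135, 123 and 114 CPM in the WT LPS and 84.0, 81.2 and 73.9 CPM in the ACAT1 KO LPS libraries. The lowest WT library stood well above the highest ACAT1 KO library. Its log2 fold change was -0.62 (SE 0.0754, edgeR adjusted p = 0.00373). Tbk1 was 199, 188 and 177 CPM in WT LPS and 144, 139.6 and 134 CPM in ACAT1 KO LPS libraries, and the genotypes did not overlap. Its log2 fold change was -0.41 (SE 0.0597, edgeR adjusted p = 0.00628). Both genes passed in all 14 alternatives run for this comparison, in each of the 6 fits without 1 library among them, with log2 fold changes from -0.66 to -0.55 for Traf3 and from -0.45 to -0.37 for Tbk1.

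Traf5 was 12.4, 11.7 and 13.3 CPM in WT LPS and 7.21, 6.88 and 9.19 CPM in ACAT1 KO LPS libraries. ACAT1 KO replicate 3 was the nearest to the WT libraries and still below them. The log2 fold change was -0.66 (SE 0.123, edgeR adjusted p = 0.013), and the call was lost without ACAT1 KO replicate 1 and without ACAT1 KO replicate 2, at -0.61 and -0.58. In ACAT1 KO cells, Traf5 after LPS overlapped the WT unstimulated libraries, which held 6.42, 6.81 and 7.36 CPM.

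For Traf1, whose LPS levels are given with its response, the genotype difference after LPS was a log2 fold change of 0.40 (SE 0.0837, edgeR adjusted p = 0.0201). That call was lost without ACAT1 KO replicate 1 and without ACAT1 KO replicate 2, at 0.34 and 0.39, and in the model of all 12 libraries, at 0.38, and the adjusted p of its 14 alternatives ran from 0.00042 to 0.194 (edgeR, DESeq2 and limma-voom). Traf6, the ubiquitin ligase on the MyD88 branch, was 62.8, 57.6 and 64.5 CPM in WT LPS and 73.8, 74.4 and 68.5 CPM in ACAT1 KO LPS libraries, with no overlap. Its log2 fold change was 0.25 (SE 0.0639, edgeR adjusted p = 0.0362). The Traf6 call was kept in 2 of the 6 fits without 1 library, those without WT replicates 1 and 3, and was lost in the other 4 at log2 fold changes of 0.21 to 0.29.

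Traf4 was 1.48, 1.26 and 2.17 CPM in WT LPS and 2.15, 2.56 and 2.99 CPM in ACAT1 KO LPS libraries. WT replicate 3 lay above the lowest ACAT1 KO library. The log2 fold change was 0.66 (SE 0.222, edgeR adjusted p = 0.0822). Traf4 passed in 3 of its 14 alternatives. These were without WT replicate 3 at 0.94 (edgeR adjusted p = 0.0248), with DESeq2 at 0.67 (DESeq2 adjusted p = 0.0206) and with the replicate block at 0.69. The largest adjusted p among the 14 was 0.22 (edgeR). Traf2 had a log2 fold change of -0.17 (SE 0.0576, edgeR adjusted p = 0.0853), with WT LPS libraries at 64.7 to 71.1 CPM and ACAT1 KO LPS libraries at 57.4 to 59.7 CPM. Tank, at 0.15 (SE 0.0859), did not pass, and passed without WT replicate 1, its highest WT LPS library, at 0.24 (edgeR adjusted p = 0.0464, with alternatives from 0.0464 to 0.55). Traf7 and Ikbke had log2 fold changes of -0.06 (SE 0.0484) and -0.02 (SE 0.0678), with edgeR adjusted p of 0.465 and 0.891.

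**Figure D3:**
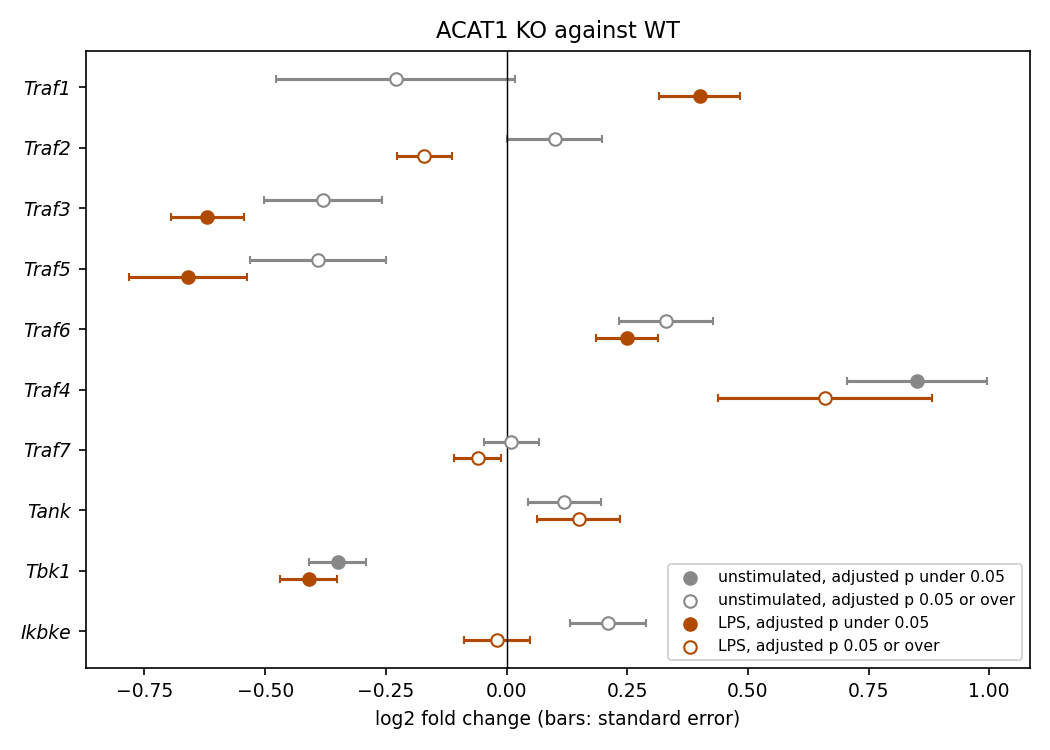
Log2 fold change of ACAT1 KO against WT for each gene, without stimulation and after LPS, with bars for the standard error from edgeR and filled points for an adjusted p under 0.05. Filled points are Traf4 and Tbk1 without stimulation and Traf1, Traf3, Traf5, Traf6 and Tbk1 after LPS, and Tbk1 is near -0.4 in both states.

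The difference between the responses of the genotypes to LPS was tested as an interaction in the model of all 12 libraries. None of the 10 genes passed the adjusted threshold in edgeR, DESeq2 or limma-voom, where edgeR called 0.0484% of all genes higher and 0.139% lower. With p under 0.05 before adjustment there were 3, where 3.28% of all genes were called higher and 5.64% lower. Traf1 had an interaction of 0.60 on the log2 scale (SE 0.264, edgeR adjusted p = 0.524). For Traf2 it was -0.28 (SE 0.112, edgeR adjusted p = 0.469) and for Ikbke -0.24 (SE 0.106, edgeR adjusted p = 0.527). For Traf3, Traf5 and Tbk1 the interactions were -0.24, -0.28 and -0.08 on the log2 scale, with edgeR adjusted p of 0.743, 0.752 and 0.903. With upper-quartile normalization the share of all calls in this test that were higher went from 25.8% to 43.5%. With the line as a replicate block, the number of all genes called in this test went from 31 to 288, and still 0 of the 10 genes passed, the smallest adjusted p among them being 0.141 for Traf1 from edgeR.

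Ratios within a library do not depend on how libraries are scaled. The ratio of Ikbke to Tbk1, in CPM per kb, was 0.624, 0.581 and 0.554 in the WT and 0.822, 0.842 and 0.923 in the ACAT1 KO unstimulated libraries. After LPS it was 1.53, 1.62 and 1.80 in WT and 1.93, 2.27 and 2.31 in ACAT1 KO libraries. In CPM per kb, Tbk1 was the higher in every unstimulated library and Ikbke in every LPS library. That switch depends on the merged exon lengths, 9018 bases for Ikbke and 3910 for Tbk1. In CPM, without lengths, Ikbke was the higher in every library, with WT unstimulated means of 116 CPM for Ikbke and 86.0 CPM for Tbk1. Comparisons of the ratio between groups do not depend on the lengths. In both states the ratio of every ACAT1 KO library lay above that of every WT library. The log2 ratio was higher in ACAT1 KO cells by 0.56 without stimulation and by 0.39 after LPS (exact permutation test, two-sided, p = 0.1 each, n = 3 against 3, the smallest p that this design allows). The ratio of Traf1 to Traf2 was 0.197, 0.21 and 0.146 in WT and 0.222, 0.116 and 0.108 in ACAT1 KO unstimulated libraries, where the genotypes overlapped (exact permutation test, two-sided, p = 0.4, n = 3 against 3). After LPS it was 2.46, 3.10 and 2.99 in WT and 4.56, 4.20 and 3.86 in ACAT1 KO libraries, with no overlap and a log2 difference of 0.57 (exact permutation test, two-sided, p = 0.1, n = 3 against 3). 

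**Figure D4:**
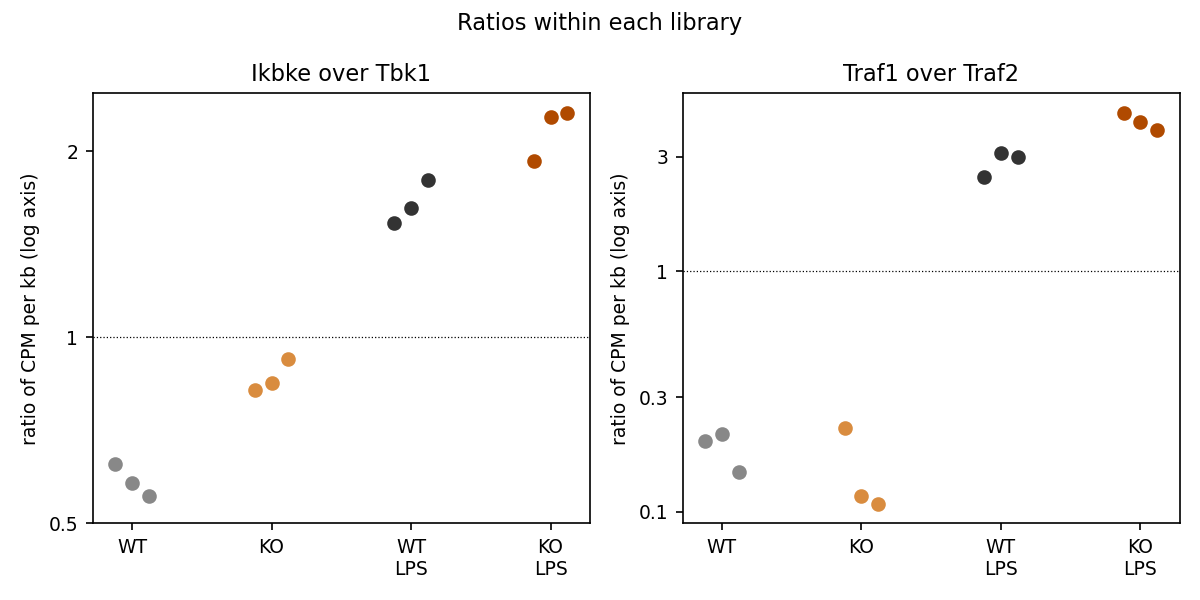
Ratios of CPM per kb within each library on log axes, Ikbke over Tbk1 on the left and Traf1 over Traf2 on the right, with 1 point per library and a dotted line at 1. Both ratios are below 1 in all 6 unstimulated and above 1 in all 6 LPS libraries, and the position of a ratio against 1 depends on the exon lengths used.

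Traf3 lies on chromosome 12 and Traf6 on chromosome 2 beyond 90 Mb, segments where earlier results of these data show many genes displaced together between the lines. After LPS, the log2 fold change of ACAT1 KO against WT had a median of -0.28 over the 584 genes tested on chromosome 12, of which 41.1% were called lower, and the 712 genes on chromosome 2 from 90 Mb had a median of 0.28 and 36.5% were called higher, against 8.28% lower and 4.65% higher among the 15169 other genes, those of chromosome 2 before 90 Mb included. Traf3, at -0.62, was below the median of its chromosome, and Traf6, at 0.25, was close to that of its segment. Without stimulation the medians were -0.26 on chromosome 12 and 0.29 on chromosome 2 from 90 Mb, beside -0.38 for Traf3 and 0.33 for Traf6. Tbk1, Traf4, Traf5 and Traf1 lie outside these segments, and the chromosomes of Tbk1, Traf4 and Traf5 were not examined in this way.

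Of the 5 tested genes that start nearest to Traf3 on each side, all within 0.277 Mb, 4 were lower and 3 higher in ACAT1 KO cells after LPS, so its neighbours did not all move in 1 direction. Cdc42bpb, to its right, had a log2 fold change of -0.62 (SE 0.0506), Rcor1 one of -0.36 (SE 0.0489) and Tecpr2 one of -0.45 (SE 0.0722), while Exoc3l4 stood at 0.57 (SE 0.0791) and the antisense gene Gm10425 at 0.74 (SE 0.0915). The antisense gene A230087F16Rik was also lower, at -1.31, the pseudogene Gm46379 higher, at 0.92, and Amn, Ankrd9 and the pseudogene Rps19-ps6 did not pass. The same choice around Traf6 reached 0.771 Mb to the right, but to the left only Iftap lay close, at 0.118 Mb, with Gm13803 at 3.73 Mb and Api5, 2810002D19Rik and Itpa-ps1 at 7.27 to 7.29 Mb. Of these 10 genes, 8 were higher and 0 lower after LPS, with log2 fold changes from 0.09 to 0.83. Ldlrad3 stood at 0.77, Fjx1 at 0.60, Trim44 at 0.41, Api5 at 0.37, Commd9 at 0.34 and Iftap at 0.33. Prr5l, the gene next to Traf6, was at 0.83 and, without stimulation, at -0.87, where it did not pass (edgeR adjusted p = 0.273). After LPS the pseudogene Itpa-ps1 was at 0.38, and the transcript 2810002D19Rik and the pseudogene Gm13803 did not pass. The part of these segments in the values of Traf3 and Traf6 was not tested.

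**Figure D5:**
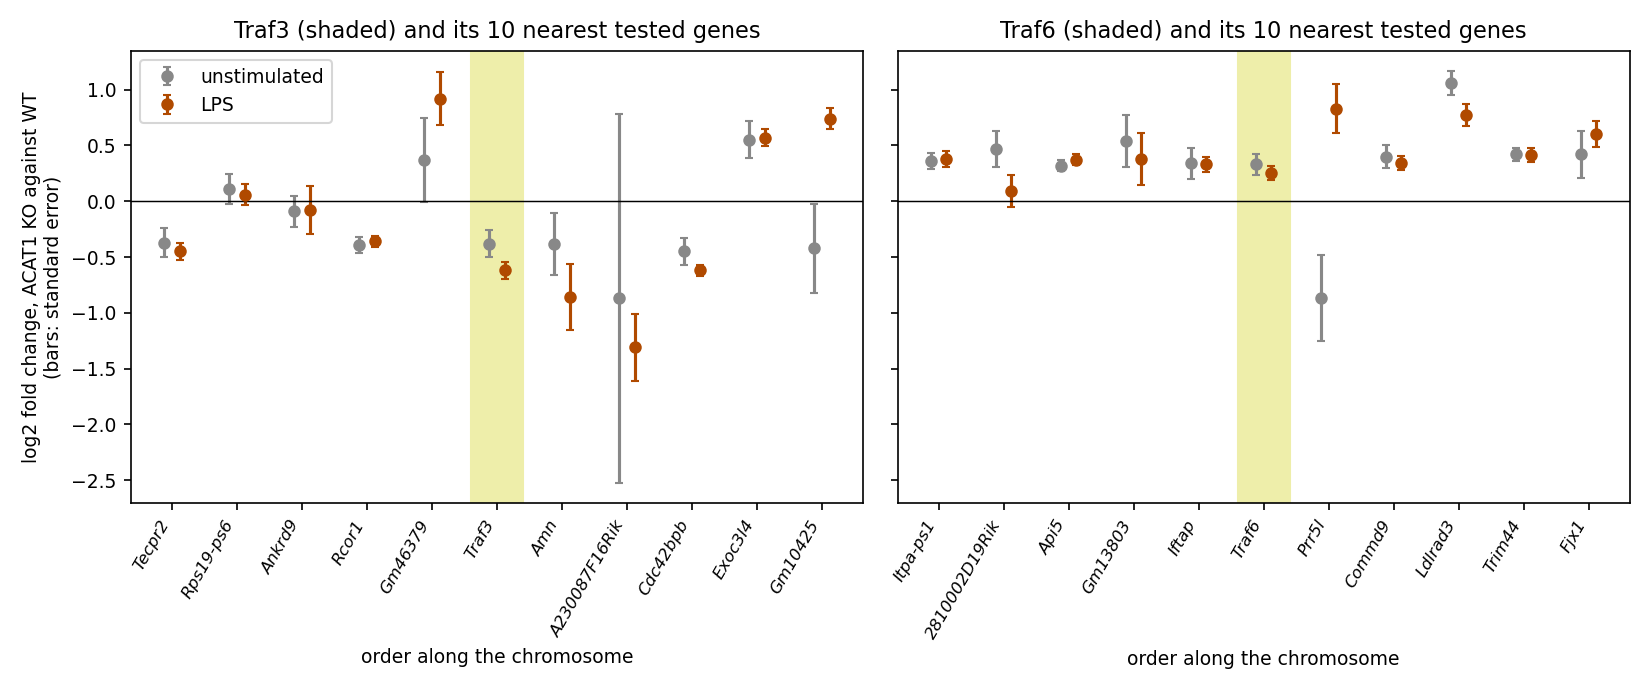
Log2 fold change of ACAT1 KO against WT for Traf3 (left, shaded) and Traf6 (right, shaded) and the 5 tested genes that start nearest on each side, in order along the chromosome, with bars for the standard error from edgeR. Neighbours of Traf3 lie on both sides of 0, and after LPS all 10 neighbours of Traf6 lie above 0.

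A list of 66 further genes of the pathway, in 8 roles, was counted beside the 10, and 65 of them were tested. With LPS, 42 were higher and 12 lower in WT cells, and 42 were higher and 16 lower in ACAT1 KO cells, where 29.3% of all genes were called higher and 28.0% lower in WT and 29.5% and 31.2% in ACAT1 KO cells. The median of their log2 fold changes was 0.67 in each genotype, beside -0.018 and -0.026 over all genes, and the shares of all genes called stand as the comparison for the counts by role too. Of the 8 transcription factors at the end of the pathway, 7 rose in WT cells, with a list median of 1.98 and Nfkb1, a subunit of NF-kappaB, at 2.25 on the log2 scale. The role of TRAF-associated ubiquitin ligases and the linear ubiquitin complex held 8 genes, not all of them ligases, and 6 rose in each genotype. Peli1, a ligase of the Toll-like receptor pathway, led them at 4.92 in WT and 5.16 in ACAT1 KO cells. Ripk2, a kinase of the NOD receptor pathway, rose by 3.28 and 3.45 on the log2 scale. Of the 9 receptor adaptors, 3 were higher and 5 lower in WT cells. Of the TBK1 scaffolds, 3 of the 4 tested rose and Tbkbp1 fell, by 1.80 on the log2 scale in WT and by 1.91 in ACAT1 KO cells, and Traf3ip3 and Otub2, a deubiquitinase, also fell, by 1.45 and 1.34 in WT cells.

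Between genotypes without stimulation, 1 of the 65 passed, where 0.742% of all genes were called higher and 1.17% lower. This was Tab1, a partner of TAK1, at a log2 fold change of -0.58 (SE 0.0814, edgeR adjusted p = 0.0368). After LPS 6 were higher and 5 lower in ACAT1 KO cells, shares near the 5.93% and 9.12% of all genes called, so these counts are not a result about the list. The higher ones with the smallest p were Rbck1, of the linear ubiquitin complex, at 0.36 (SE 0.0782), and the NF-kappaB subunits Nfkb2 at 0.27 (SE 0.0647) and Relb at 0.20 (SE 0.0517). The lower ones were led by Tnfrsf1a, the TNF receptor that recruits TRAF2, at -0.22 (SE 0.0517), with Map3k5 at -0.38 (SE 0.0929) and Ripk1 at -0.22 (SE 0.0588). No gene of the list passed in the interaction test by edgeR.

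The genes whose log2 CPM followed that of 3 of the 10 most closely over the 12 libraries were looked up among 11960 genes with a mean of at least 1 CPM, and these values are descriptions, since the libraries share treatment and genotype. For Traf1 they were Acod1, which makes itaconate, Nfkbie, an inhibitor of NF-kappaB, and Birc3, which encodes cIAP2, each with a Pearson r of 0.998. For Tbk1 they were Polr1f, Kdm1a and Cand1, with r of 0.997, 0.994 and 0.993. For Traf4, the member with the largest mean genotype difference, they were Plcb2, Mcm8 and Ctbs, with r of 0.987, 0.983 and 0.979.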

How the data were processed

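The 12 RNA-seq libraries came from 3 WT and 3 ACAT1 KO lines in each state and were grouped by the genotype and treatment in their labels. Per the study's methods, the authors used Trimmomatic 0.33 for trimming, HISAT2 for alignment to GRCm38 and StringTie for quantification. Their differential expression came from Ballgown. The deposited values used here are unnormalized whole-number counts, with 1 table of genes for unstimulated cells and 1 for LPS. All genes in a table reach 4 counts in 5 or more of its 6 libraries. After 59 and 57 repeated entries were removed, the tables held 17544 genes for unstimulated cells and 17874 after LPS. Columns of the authors' own comparisons and 12 columns of log2 values per library were not used.

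Counts were normalized by TMM, filtered by filterByExpr and compared by the quasi-likelihood test of edgeR 4.0.16 in R 4.3.3, two-sided, with Benjamini-Hochberg adjustment over all genes tested and a threshold of 0.05. Genotypes were compared within each state, and LPS and its interaction with genotype in a model of all 12 libraries. Standard errors were taken from the F statistic. The test was run on simulated counts with 200 changed genes. CPM come from the 12-library fit, except for the cell type markers, whose CPM use the raw total of each library in its own table. Lengths come from the GENCODE annotation of GRCm38. The 10 genes, the pathway list, the markers and the tests were chosen with earlier results of these data known. All 10 genes are named in every comparison, with the 3 pathway genes of smallest p in each direction, the 5 tested genes nearest to Traf3 and to Traf6 on each side, and the 3 genes most correlated with 3 of the 10.

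No replicate pair agreed within sampling noise, the lowest chi-square per degree of freedom being 31.3. Deviations of same-numbered unstimulated and LPS libraries of a genotype correlated from 0.139 to 0.454 over 11961 genes. The number was taken to mark the line, which the labels do not state. These correlations cannot settle that, because libraries that share no line also correlated. Between unstimulated WT and ACAT1 KO libraries of the same number, r was -0.412 for number 1 and 0.745 for numbers 2 and 3. After LPS it ran from -0.108 to 0.173. WT and ACAT1 KO libraries of the same number were not paired. Alternatives were DESeq2 1.42.0, limma-voom (limma 3.58.1), RLE and upper-quartile normalization, no filter, at least 10 counts in every library, each library left out, a replicate block, a term for the libraries richer in antisense counts, and a single 12-library model. Protein sequences were not analysed here.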

Additional observations from a re-analysis of the deposited data

How the results depend on the processing

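All 10 genes kept their LPS call and direction in both genotypes in each of 21 alternatives, and 0 passed the interaction test in any of them. The smallest adjusted p for the interaction among these alternatives was 0.0631, for Traf1 in an edgeR fit that left out 1 library. At an unadjusted p under 0.05 the interaction called 3 genes. Without stimulation, the genotype comparison called 2 of the 10 genes, 4 with DESeq2, 1 with limma-voom, 6 at an unadjusted p under 0.05, and 0 to 1 when a library was left out. After LPS it called 5, 3 in the model of all 12 libraries, and 2 to 6 when a library was left out, with 2 without ACAT1 KO replicate 1 or 2. The replicate block for genotypes, whose numbers share no line, called 0 without stimulation and 5 after LPS, where Traf4 passed (log2 fold change 0.69) and Traf6 did not. The block by line changed no call of the 10 genes with LPS or in the interaction. The antisense term could not be fitted after LPS, since no LPS library was rich in antisense counts. Calls over all genes ran from 7 (without WT replicate 2) to 522 (without WT replicate 3) without stimulation and from 867 to 2245 after LPS when a library was left out, against 314 and 2481. Without stimulation they were 1721 with DESeq2, 1353 in the 12-library model, 664 with the antisense term, 475 with at least 10 counts in every library and 151 with the replicate block. For the interaction they ran from 2 to 41 when a library was left out, against 31, and were 333 with DESeq2, 11 with limma-voom, 69 with the antisense term and 457 with that term and the replicate block. The order of the 4 group means was the same for 9 of 10 genes with RLE scaling, 8 with upper-quartile scaling and 9 with raw totals. Ratios within libraries kept their direction without each library in turn. Causes of these differences were not tested. Traf4, the lowest gene after LPS, rests on 124 to 328 counts per LPS library.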
